A study of Mus musculus with 12 samples.

Results

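Extracellular and membrane-bound proteases, with inhibitors of some of them, were followed in injured and uninjured retinal ganglion cells of the mouse. The set held 10 of the 38887 genes of the deposited table, taken by symbol: Ecel1, Ece1, Ece2, Prss12, Plat, Plau, Mmp9, Mmp24, Timp2 and Timp3. It had been put together for the levels of Ecel1, Prss12 and Mmp9 in these same libraries, so those 3 genes are described below without a test, and the other 7 are tested. RNA came from 12 libraries in 4 groups of 3. Opn4 cells were picked from Opn4CreERT/+;R26-tdTomatof/f mice, in which a tamoxifen-inducible Cre at the melanopsin locus turns on a red reporter in intrinsically photosensitive ganglion cells (ipRGCs). HB9 cells carried the green reporter of HB9:GFP mice, which labels direction-selective ganglion cells of the ON-OFF kind (ooDSGCs). The groups were Opn4 cells after optic nerve crush, Opn4 cells after sham surgery, HB9 cells after crush and HB9 cells after sham. All mice, HB9:GFP included, had received 5 daily doses of tamoxifen of 0.124 mg per g starting on postnatal day 21, had surgery at postnatal day 42 and were sampled 3 days later. A library pooled 30 cells, 10 from an animal, so it is a mean over 3 pools and hides differences between cells. The Cre allele and the red reporter belong to the Opn4 line alone, so cell class, mouse line and reporter cannot be told apart, and the labels name no preparation or sequencing batch.

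Proteases outside the cell cut matrix, adhesion molecules, receptors and secreted precursors, and in neurons they act on growth cones and synapses. Ecel1, Ece1 and Ece2 belong to the M13 family of membrane zinc peptidases, in which the Ece enzymes turn big endothelin precursors into active endothelins, while Ecel1 is known as an enzyme of damaged neurons. Prss12 (neurotrypsin), Plat (tissue plasminogen activator) and Plau (urokinase) are secreted serine proteases. Mmp9 is a secreted gelatinase, Mmp24 a membrane-anchored metalloproteinase of neurons, and Timp2 and Timp3 are secreted inhibitors of metalloproteinases.

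Values are RPKM, reads scaled by gene length and by a library total, on mouse build mm10. The totals by which the libraries had been scaled ranged from 15104446 to 28195798 reads, and 15021 to 16514 genes per library were at 1 RPKM or more. Marker genes of the 2 classes separated the libraries by label. The mean log2(RPKM + 1) of 6 ipRGC markers was 7.50 to 7.60 after crush and 8.06 to 8.61 after sham in Opn4 libraries, against 2.41 to 2.92 after crush and 1.26 to 1.96 after sham in HB9 libraries. For 6 ooDSGC markers it was 2.05 to 2.80 after crush and 1.84 to 3.25 after sham in Opn4 libraries, against 4.88 to 5.55 and 6.14 to 6.71 in HB9 libraries. Rod transcripts were present throughout. The median log2 difference of 10 rod markers, Opn4 minus HB9, was 1.28 after crush and 1.54 after sham. Of the 10, 1 passed the threshold as higher in Opn4 cells after crush (Nr2e3), where 5.12% of all genes did. A different 1 passed after sham (Cnga1), where 5.82% of all genes did. The mean of the 10 was 5.13 to 6.45 after crush and 4.25 to 5.88 after sham, against 4.05 to 4.63 and 2.83 to 4.54 in HB9 libraries. The mean of 7 markers of all ganglion cells was 6.60 to 7.12 in Opn4 crush, 6.63 to 7.11 in Opn4 sham, 7.06 to 7.48 in HB9 crush and 8.07 to 8.22 in HB9 sham libraries. After crush 1 of the 7 fell in Opn4 cells (Rbpms), where 0.421% of all genes fell, and 2 in HB9 cells (Rbpms and Sncg), where 2.57% fell. The part of these markers in the changes below was not tested. Libraries 1 of both Opn4 groups stood apart from the others on the third principal component, at scores of -61.87 after crush and 83.8 after sham, with the other 10 between -33.21 and 34.28. In pooled cells, fewer cells of a type and less RNA per cell cannot be told apart.

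Ecel1 (ENSMUSG00000026247, chromosome 1, 87147655 to 87156521, minus strand) was near 0 in every sham library and high in every crush library. It measured 26.5, 101 and 59.7 RPKM in Opn4 crush libraries, against 0, 0.530 and 0.0266 RPKM in Opn4 sham libraries. In HB9 cells it measured 1047, 548 and 509 RPKM after crush, against 0.0509, 0.101 and 0.104 RPKM after sham. Crush and sham libraries did not overlap in either class, and the lowest HB9 crush library lay above the highest Opn4 crush library. The group means were 62.4 ± 37.3 RPKM in Opn4 crush, 0.185 ± 0.298 RPKM in Opn4 sham, 701 ± 300.2 RPKM in HB9 crush and 0.0853 ± 0.0298 RPKM in HB9 sham libraries (SD, n = 3 each). On the log2(RPKM + 1) scale the difference between crush and sham was 5.58 in Opn4 cells and 9.26 in HB9 cells. A pseudocount of 0.1 in place of 1 made these 8.09 and 11.82, since the sham libraries held only 0 to 28 recovered reads of the gene. After crush, Ecel1 was the most abundant of the 10 genes in HB9 cells, where it stood above Plat at 90.3 ± 19.2 RPKM, whereas in Opn4 cells Timp2 (631 ± 63.6 RPKM), Ece1 (92.7 ± 7.65 RPKM) and Plat (66.4 ± 42.2 RPKM) stood above it, Plat by less than its spread.

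Prss12 (ENSMUSG00000027978, chromosome 3, 123446913 to 123506602, plus strand), a secreted protease that cleaves agrin at synapses, was high after crush in HB9 cells and near 0 elsewhere. It measured 0, 0.0212 and 0 RPKM in Opn4 crush libraries, against 0, 0.0508 and 2.07 RPKM in Opn4 sham libraries. HB9 crush libraries held 74.2, 65.7 and 51.0 RPKM of it, against 0.598, 0 and 0 RPKM in HB9 sham libraries. The 3 HB9 crush libraries stood above the other 9, and the highest of those 9 was an Opn4 sham library. Group means were 0.00706 ± 0.0122 RPKM in Opn4 crush, 0.707 ± 1.18 RPKM in Opn4 sham, 63.6 ± 11.8 RPKM in HB9 crush and 0.199 ± 0.345 RPKM in HB9 sham libraries. The log2 difference between crush and sham was -0.55 in Opn4 cells and 5.77 in HB9 cells, and a pseudocount of 0.1 made these -1.58 and 8.37. The value in Opn4 cells rests on the library at 2.07 RPKM. Ecel1 and Prss12 thus differed in where they were high after crush, in both classes for Ecel1 and in HB9 cells for Prss12.

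To show the DNA before the start site of these 2 crush-associated genes side by side, the 250 bases before the RefSeq start (GRCm38.p6) are printed 5′ to 3′ on the strand of the gene, with each CG dinucleotide in capitals. The Ecel1 stretch is chr1:87156357-87156606 (minus strand) and the Prss12 stretch is chr3:123446663-123446912 (plus strand). In the deposited table Ecel1 begins at 87156521 on its strand, so part of its stretch lies within the gene as placed there. The Prss12 stretch ends just before the deposited start of that gene, 123446913. The 2 stretches are thus not placed alike on the deposited coordinates, which limits the comparison of their CG counts.
Ecel1: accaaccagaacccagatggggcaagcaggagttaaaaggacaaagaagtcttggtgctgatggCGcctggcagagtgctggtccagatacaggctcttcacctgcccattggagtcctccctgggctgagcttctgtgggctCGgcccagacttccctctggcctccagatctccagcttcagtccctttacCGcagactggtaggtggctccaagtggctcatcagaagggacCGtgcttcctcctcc
Prss12: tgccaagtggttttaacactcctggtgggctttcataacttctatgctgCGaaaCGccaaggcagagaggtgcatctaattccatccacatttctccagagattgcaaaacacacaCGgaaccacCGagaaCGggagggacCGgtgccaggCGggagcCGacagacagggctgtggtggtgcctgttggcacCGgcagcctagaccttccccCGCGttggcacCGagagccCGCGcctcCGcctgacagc
Ecel1 had 4 CG dinucleotides in this stretch and Prss12 had 15, against a median of 6 over the same 250 bases of all RefSeq windows, while the GC content of the stretches was close, at 58.4% for Ecel1 and 59.6% for Prss12. Windows of 300 bases (250 before and 50 after the start) were matched for 7 of the 10 genes: Ecel1, Ece1, Ece2, Prss12, Mmp24, Timp2 and Timp3. None of their 10 windows held the AP-1 motif TGANTCA or the cyclic AMP response element TGACGTCA on either strand, which 7.81% and 1.79% of the 32851 windows held. These letters are a description of the window and say nothing of a factor.

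Ece1 (ENSMUSG00000057530, chromosome 4, 137862237 to 137965229, plus strand) was more abundant in Opn4 than in HB9 cells with or without injury. It measured 87.2, 101 and 89.4 RPKM in Opn4 crush libraries, against 69.2, 55.3 and 65.3 RPKM in Opn4 sham libraries. Its values in HB9 cells were 13.4, 14.2 and 12.3 RPKM after crush, against 16.1, 13.7 and 18.6 RPKM after sham. No Opn4 library overlapped an HB9 library. Ece1 was higher in Opn4 than in HB9 cells after crush, by 2.71 ± 0.21 on the log2 scale (SE, adjusted p = 8.1e-06), and after sham, by 1.91 ± 0.21 (adjusted p = 8.38e-05). Within Opn4 cells the crush libraries all lay above the sham libraries, with a log2 difference of 0.55 ± 0.21 that missed the threshold (adjusted p = 0.263). HB9 libraries of both surgeries overlapped at -0.25 ± 0.21 (adjusted p = 0.607), and the difference between the 2 crush effects, 0.80 ± 0.30, also missed it (adjusted p = 0.276, 95% interval 0.15 to 1.45 before adjustment).

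Ece2 (ENSMUSG00000022842, chromosome 16, 20611593 to 20646485, plus strand), the related enzyme that works at acidic pH, had overlapping levels in all groups. It measured 21.3, 35.2 and 45.8 RPKM in Opn4 crush libraries, against 18.0, 61.6 and 62.9 RPKM in Opn4 sham libraries. In HB9 cells it measured 23.1, 23.9 and 35.7 RPKM after crush, against 32.1, 66.3 and 45.1 RPKM after sham. All pairs of groups overlapped, and none of the 5 comparisons passed the threshold. The log2 difference between crush and sham was -0.34 ± 0.46 in Opn4 cells (adjusted p = 0.782, 95% interval -1.32 to 0.65) and -0.74 ± 0.46 in HB9 cells (adjusted p = 0.444, 95% interval -1.73 to 0.25). Camk2n2, on the opposite strand, overlaps Ece2 at a mean of 109 RPKM in Opn4 crush, 72.0 RPKM in Opn4 sham, 92.6 RPKM in HB9 crush and 100.2 RPKM in HB9 sham libraries. Whether reads were counted by strand is not given in the sources used here, so reads of the pair cannot be told apart. The same limit holds for Mmp24 with BC029722 and for Timp3 with Syn3.

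Plat (ENSMUSG00000031538, chromosome 8, 22757744 to 22782847, plus strand), the activator that turns plasminogen into plasmin, had higher values after crush in both classes, with a wide spread. It measured 28.1, 112 and 59.5 RPKM in Opn4 crush libraries, against 0.552, 15.4 and 31.5 RPKM in Opn4 sham libraries. HB9 crush libraries held 112, 77.8 and 80.6 RPKM of it, against 11.6, 28.7 and 27.6 RPKM in HB9 sham libraries. The Opn4 groups overlapped by 1 library, and the HB9 groups did not overlap. The log2 difference between crush and sham was 2.64 ± 0.87 in Opn4 cells (adjusted p = 0.185) and 2.03 ± 0.87 in HB9 cells (adjusted p = 0.219), and neither passed the threshold. The HB9 difference did pass in some other fits, all giving 2.00 to 2.92: with the HB9 libraries alone (adjusted p = 0.0191), without Opn4 sham replicate 1 (0.0233), without both Opn4 libraries that stood apart (0.00862), with library weights (0.0234) and with rod transcripts as a covariate (0.0317). On the log2 scale the SD of Plat was 0.98 in Opn4 crush, 2.30 in Opn4 sham, 0.29 in HB9 crush and 0.70 in HB9 sham libraries. With the rod covariate the Opn4 difference was 3.28 (adjusted p = 0.0469). Between classes Plat did not pass the threshold after crush, at -0.63 ± 0.87 (adjusted p = 0.698), or after sham, at -1.23 ± 0.87 (adjusted p = 0.425), and both signs turned with the rod covariate, to 1.21 and 0.86. Without Opn4 sham replicate 1 the sham value was 0.065.

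Plau (ENSMUSG00000021822, chromosome 14, 20836662 to 20843388, plus strand), the other plasminogen activator, was not detected at this depth. It was at 0 in 11 libraries and at 0.0215 RPKM, a single recovered read, in 1 HB9 sham library. A count of 0 allows up to 3 reads, which is 0.0459 to 0.0856 RPKM depending on the library, for counting error only. Its value failed the filter of 1 RPKM in at least 3 libraries, so it was not tested.

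Mmp9 (ENSMUSG00000017737, chromosome 2, 164940780 to 164955850, plus strand) was most abundant in uninjured HB9 cells. It measured 0, 5.93 and 5.10 RPKM in Opn4 crush libraries, against 0, 0 and 0.986 RPKM in Opn4 sham libraries. Its values in HB9 cells were 15.2, 12.2 and 12.6 RPKM after crush, against 115, 114 and 141 RPKM after sham. HB9 groups did not overlap, and both lay above all Opn4 libraries. Group means were 3.68 ± 3.21 RPKM in Opn4 crush, 0.329 ± 0.569 RPKM in Opn4 sham, 13.3 ± 1.63 RPKM in HB9 crush and 123 ± 15.5 RPKM in HB9 sham libraries, so the HB9 crush mean was 0.108 of the HB9 sham mean. The log2 difference between crush and sham was 1.47 in Opn4 cells and -3.12 in HB9 cells, and that between Opn4 and HB9 cells was -2.04 after crush and -6.62 after sham (-9.12 with a pseudocount of 0.1). The 2 Opn4 crush libraries above 0 rest on 380 and 382 recovered reads, and Opn4 crush replicate 1 had 0. After crush, Mmp9 was thus lower and Ecel1 and Prss12 were higher in the same HB9 libraries.

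Mmp24 (ENSMUSG00000027612, chromosome 2, 155775342 to 155818366, plus strand), a membrane metalloproteinase that can cut N-cadherin, was measured at moderate levels in all 12 libraries. It measured 29.8, 37.1 and 45.3 RPKM in Opn4 crush libraries, against 22.6, 26.2 and 29.0 RPKM in Opn4 sham libraries. In HB9 cells it measured 30.8, 21.7 and 18.1 RPKM after crush, against 25.9, 34.8 and 41.8 RPKM after sham. The Opn4 crush libraries all lay above the Opn4 sham libraries, while the HB9 groups overlapped with a lower mean after crush. The log2 difference was 0.50 ± 0.28 in Opn4 cells (adjusted p = 0.450) and -0.53 ± 0.28 in HB9 cells (adjusted p = 0.348). The difference between these effects was 1.02 ± 0.39 (adjusted p = 0.290, 95% interval 0.17 to 1.88 before adjustment), and no comparison of Mmp24 passed the threshold. BC029722, which overlaps it on the opposite strand, averaged 94.4 RPKM in Opn4 crush, 73.6 RPKM in Opn4 sham, 48.7 RPKM in HB9 crush and 57.8 RPKM in HB9 sham libraries.

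Timp2 (ENSMUSG00000017466, chromosome 11, 118301069 to 118355740, minus strand), an inhibitor of metalloproteinases that also takes part in the activation of pro-Mmp2, was the most abundant of the 10 genes in Opn4 cells. It measured 705, 595 and 594 RPKM in Opn4 crush libraries, against 391, 369 and 375 RPKM in Opn4 sham libraries. HB9 crush libraries held 53.2, 86.7 and 60.9 RPKM of it, against 38.3, 62.3 and 61.9 RPKM in HB9 sham libraries. Every Opn4 library stood far above every HB9 library. Timp2 was higher in Opn4 than in HB9 cells by 3.24 ± 0.22 on the log2 scale after crush (adjusted p = 3.9e-06) and by 2.81 ± 0.22 after sham (adjusted p = 4.93e-06), which are ratios of mean RPKM of 9.43 and 6.98. The Opn4 crush libraries also lay above the Opn4 sham libraries, by 0.73 ± 0.22 (adjusted p = 0.137), a difference that passed only in the test on recovered reads (0.72, adjusted p = 0.025). In HB9 cells the crush difference was 0.30 ± 0.22 (adjusted p = 0.524), and the effects in the 2 classes differed by 0.43 ± 0.31 (adjusted p = 0.616).

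Timp3 (ENSMUSG00000020044, chromosome 10, 86300372 to 86349506, plus strand), an inhibitor that binds to the matrix and also blocks ADAM proteases, was low in Opn4 cells and close to 0 in HB9 cells. It measured 10.7, 2.60 and 14.5 RPKM in Opn4 crush libraries, against 2.72, 8.04 and 9.44 RPKM in Opn4 sham libraries. Its values in HB9 cells were 1.93, 0.705 and 0.00464 RPKM after crush, against 0, 0.184 and 0 RPKM after sham. Opn4 and HB9 libraries did not overlap after either surgery, and crush and sham libraries of Opn4 cells did. Timp3 was higher in Opn4 than in HB9 cells by 2.34 ± 0.62 after crush (adjusted p = 0.0265) and by 2.74 ± 0.62 after sham (adjusted p = 0.0122), but it passed the filter on low values mainly through the Opn4 libraries. The call after sham was lost without Opn4 sham replicate 3 (2.45, adjusted p = 0.0513) and with the rod covariate (2.94, adjusted p = 0.0974). The call after crush was lost without Opn4 crush replicate 1 (2.13, 0.0756), Opn4 crush replicate 3 (1.92, 0.0841), HB9 crush replicate 2 (2.34, 0.0721) or HB9 crush replicate 3 (1.96, 0.113), and in 6 other settings, with adjusted p up to 0.12. Syn3, in which the gene lies on the opposite strand, averaged 5.87 RPKM in Opn4 crush, 4.87 RPKM in Opn4 sham, 2.81 RPKM in HB9 crush and 2.74 RPKM in HB9 sham libraries. The retinal pigment epithelium makes Timp3, and the mean log2 level of 7 markers of that layer was 0.527 to 0.926 in Opn4 crush, 0.621 to 1.28 in Opn4 sham, 0.518 to 0.888 in HB9 crush and 0.373 to 0.504 in HB9 sham libraries. Of these markers Rpe65 and Ttr were at 0 in all libraries, and 5 of 7 were under 1 RPKM in every one. The 2 tested, Rdh5 and Best1, had log2 differences between Opn4 and HB9 cells after sham of 1.29 ± 0.37 (adjusted p = 0.0414) and 2.53 ± 1.04 (adjusted p = 0.151), in the direction of Timp3. After crush, where Timp3 was also higher in Opn4 cells, Rdh5 and Best1 had -0.08 ± 0.37 (adjusted p = 0.916) and 0.40 ± 1.04 (adjusted p = 0.850). Their part in the Timp3 result was not tested.

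**Figure D1:**
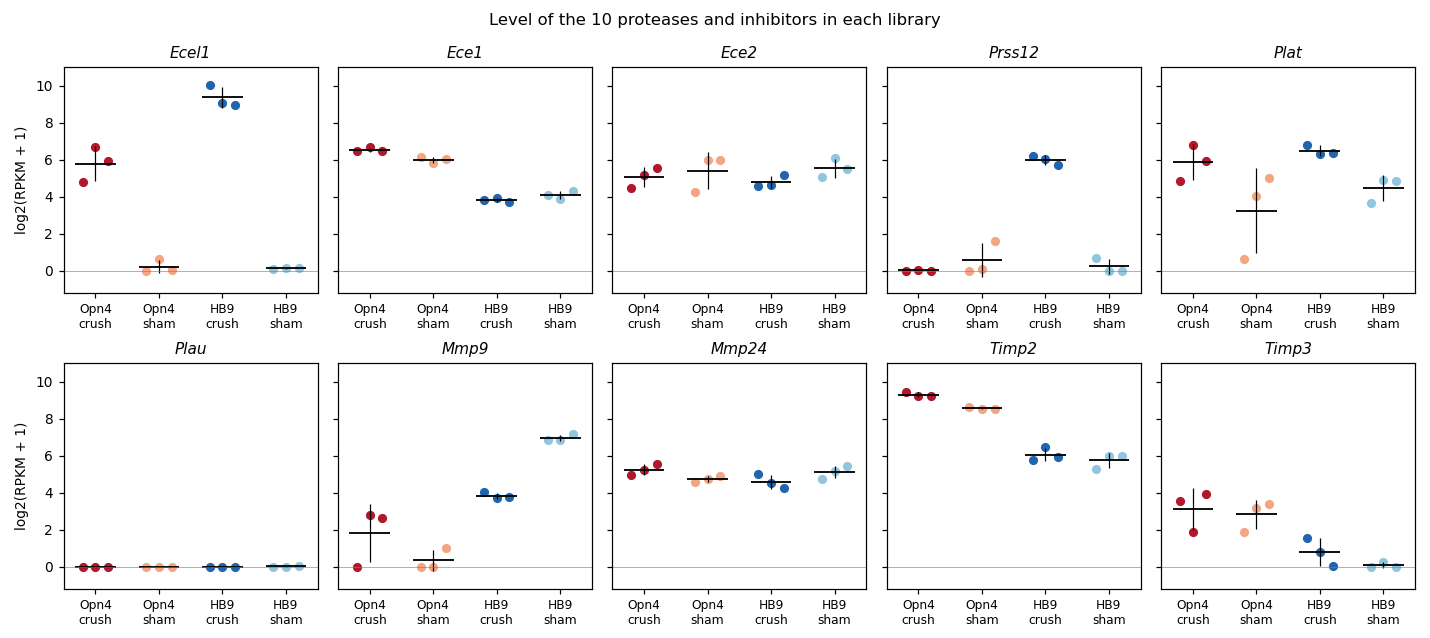
Level of each of the 10 genes as log2(RPKM + 1), with a point for each library, a bar for the mean of 3 libraries and a vertical line for ± 1 SD, by group. Ecel1 is near 0 in both sham groups and reaches 1047 RPKM after crush in HB9 cells, Prss12 is high only in the 3 HB9 crush libraries, Mmp9 is highest in HB9 sham libraries, and Timp2 and Ece1 separate the classes.

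For the 6 genes tested, the counts in each comparison were set beside the share of all 18269 tested genes that passed. After crush in Opn4 cells, 0 of 6 passed in limma with adjustment over all genes, where 0.69% of all genes rose and 0.421% fell; 3 of 6 (Ece1, Plat and Timp2) had an unadjusted p under 0.05, and the test on recovered reads called 1. The median log2 difference of the 6 was 0.52, against -0.02 over all genes. After crush in HB9 cells, 0 of 6 passed, where 3.84% of all genes rose and 2.57% fell; Plat alone had an unadjusted p under 0.05, the test on recovered reads called 0, and the median was 0.02 against 0.11 over all genes. The crush effects of the classes differed for 0 of 6 genes, where the effect in Opn4 cells was the higher for 0.29% and the lower for 0.525% of all genes; Ece1 and Mmp24 had an unadjusted p under 0.05, and the test on recovered reads called 0. Between the classes, 3 of the 6 tested genes, Ece1, Timp2 and Timp3, were higher in Opn4 cells after both surgeries and 0 were lower, and the test on recovered reads called 2 after crush and 3 after sham. Of these, Timp3 entered the test mainly through the Opn4 libraries, and its calls were lost in the settings given above. Over all genes, 5.12% were higher in Opn4 cells and 7.6% lower after crush, and 5.82% were higher and 5.93% lower after sham. With quantile normalization the counts of all genes in HB9 cells after crush were 600 higher and 605 lower in place of 702 and 470, the effects differed for 78 and 93 genes in place of 53 and 96, and the median of all genes in HB9 cells after crush was -0.01 in place of 0.11.

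**Figure D2:**
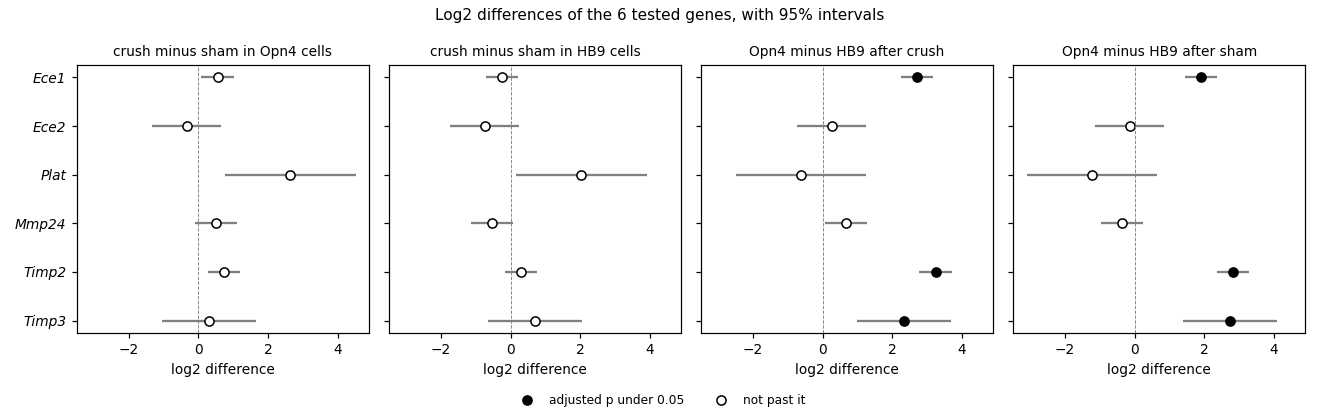
Log2 difference of each tested gene on the log2(RPKM + 1) scale in 4 comparisons, with its 95% interval from the limma fit of 12 libraries and filled points where the adjusted p is under 0.05. Both crush panels hold open points, with Plat farthest to the right at 2.64 in Opn4 and 2.03 in HB9 cells, and Ece1, Timp2 and Timp3 are filled to the right of 0 in both class panels.

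Around these genes, 107 other proteases, inhibitors, receptors and substrates were listed in 10 groups, of which 55 genes were tested. After crush in HB9 cells 8 of the 55 rose and 1 fell, where 3.84% of all genes rose and 2.57% fell, with a median log2 difference of 0.09 against 0.11 over all genes. Of those that rose, Plaur, Mmp12, Adam8, Prss56, Ednrb and Cd44 entered the test through the HB9 crush libraries, where they were high. The count of 8 is therefore no support for an excess over the share of all genes. After crush in Opn4 cells 0 of 55 passed in limma, with 9 at an unadjusted p under 0.05, 0 in the test on recovered reads and a median of 0.11 against -0.02. In HB9 cells 19 of the 55 had an unadjusted p under 0.05 in limma. The test on recovered reads called 8 there, with Anxa2 among them and without Adam8 and Adamts1.

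Of 7 tested genes of the plasminogen system, Plaur and S100a10 rose in HB9 cells. Plaur, the urokinase receptor, measured 0, 3.04 and 0 RPKM in Opn4 crush libraries and 0 in the Opn4 sham libraries, and 42.6, 22.7 and 10.1 RPKM in HB9 crush libraries, against 0 in the HB9 sham libraries. It rose by 4.50 ± 0.60 on the log2 scale in HB9 cells (adjusted p = 0.000599), which is at least 783-fold higher in mean RPKM when the sham group is set at the limit of 3 reads over the group, a bound on counting error alone. The receptor was thus measured in the libraries of HB9 crush cells while its ligand Plau was at 0 there. S100a10, a subunit of a plasminogen-binding complex with Anxa2, rose by 1.10 ± 0.22 (adjusted p = 0.00823). It measured 440, 439 and 410 RPKM in HB9 crush libraries, against 210, 245 and 155 RPKM in HB9 sham libraries.

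The count was 1 of 7 for other matrix metalloproteinases (Mmp12), 1 of 9 for genes of the ADAM family (Adam8) and 1 of 6 for ADAMTS proteases (Adamts1). Mmp12, a secreted elastase best known from macrophages, measured 4.60, 0 and 0.0914 RPKM in Opn4 crush libraries, against 0, 0 and 0.0321 RPKM in Opn4 sham libraries. In HB9 cells it measured 28.6, 22.2 and 102 RPKM after crush, against 0, 0.0561 and 0.0278 RPKM after sham. It rose by 5.33 ± 0.68 in HB9 cells (adjusted p = 0.000459). Adam8, a membrane protease, measured 19.7, 24.9 and 1.89 RPKM in HB9 crush libraries, against 0.00961, 0.376 and 0.900 RPKM in HB9 sham libraries, and rose by 3.06 ± 0.73 (adjusted p = 0.0258). Adamts1, a secreted protease of matrix proteoglycans, measured 1.19, 27.4 and 20.7 RPKM in Opn4 crush libraries, against 0, 3.78 and 1.93 RPKM in Opn4 sham libraries, a log2 difference of 2.19 ± 0.89 (adjusted p = 0.285). It measured 15.8, 10.1 and 37.2 RPKM in HB9 crush libraries, against 0.756, 0.322 and 0.00949 RPKM in HB9 sham libraries, and rose by 3.85 ± 0.89 (adjusted p = 0.0210), and its effects in the 2 classes were not shown to differ (-1.66 ± 1.26, adjusted p = 0.644). The calls of Adam8 and Adamts1 were each lost without any of the 3 HB9 sham libraries or HB9 crush replicate 1, and also without HB9 crush replicate 2 for Adam8 and replicate 3 for Adamts1, with adjusted p up to 0.199 and 0.214 over all settings. Markers of microglia and macrophages were low in HB9 cells, with a mean log2 level of 0.329 to 0.399 after crush and 0.259 to 0.288 after sham. Tmem119 and C1qb were at 0 in all libraries, and 6 of the 8 markers were under 1 RPKM in every one. The 6 neutrophil markers had a mean log2 level of 0.00927 to 0.0245 in HB9 crush and 0.00333 to 0.213 in HB9 sham libraries, with S100a8 and Ly6g at 0 throughout.

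Prss56 and Cd44 reached 1 RPKM in the 3 HB9 crush libraries alone, and Plaur, Mmp12, Adam8 and Ednrb in those and 1 Opn4 library each, so these 6 genes entered the test through the group where they were high, and their calls are no support for a difference between groups beyond the values given. Prss56, a trypsin-like protease, measured 2.17, 2.83 and 2.36 RPKM in HB9 crush libraries and 0 in the other 9. It rose by 1.78 ± 0.31 in HB9 cells (adjusted p = 0.00414), at least 59.7-fold in mean RPKM against the limit of 3 reads over the HB9 sham group. Ednrb, the endothelin B receptor, was the only one of 5 endothelin ligands and receptors with enough signal to be tested. It measured 0.0143, 0 and 0.0117 RPKM in Opn4 crush libraries, against 0.0108, 1.43 and 0 RPKM in Opn4 sham libraries, and 6.15, 9.15 and 3.34 RPKM in HB9 crush libraries, against 0 in the HB9 sham libraries. Ednrb rose by 2.77 ± 0.45 in HB9 cells (adjusted p = 0.00240), at least 560-fold in mean RPKM against the same limit. Cd44, a hyaluronan receptor that metalloproteinases shed, measured 0 in the Opn4 crush libraries, against 0, 0 and 0.261 RPKM in Opn4 sham libraries, and 8.52, 9.98 and 4.25 RPKM in HB9 crush libraries, against 0, 0.755 and 0 RPKM in HB9 sham libraries. It rose by 2.76 ± 0.41 in HB9 cells (adjusted p = 0.00129). For Cd44 and Ednrb the crush effects of the 2 classes also differed, by -2.87 ± 0.58 (adjusted p = 0.0400) and -3.19 ± 0.64 (adjusted p = 0.0392). These 2 differences were near the threshold, and leaving out any of 11 libraries for Cd44 and any of 10 for Ednrb lost them, with adjusted p up to 0.171 and 0.105 over all settings. Müller glia and astrocyte markers were also higher after crush in HB9 cells: the mean log2 level of 9 such markers was 2.57 to 3.07 in HB9 crush libraries, against 1.50 to 1.89 in HB9 sham libraries, and their part in the result was not tested. In Opn4 libraries the mean level of these markers was 2.30 to 4.52 after crush and 2.36 to 2.62 after sham. The value of 4.52 was that of Opn4 crush replicate 1. Prss56, Cd44 and Plaur were at 0 RPKM in that library, Adam8 at 0.0124, Ednrb at 0.0143 and Mmp12 at 4.60 RPKM.

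The gene that fell was Spock2, a testican proteoglycan. It measured 57.8, 48.1 and 66.1 RPKM in HB9 crush libraries, against 97.5, 106 and 85.2 RPKM in HB9 sham libraries, and fell by 0.74 on the log2 scale (SE 0.19, adjusted p = 0.0384). The call was lost without any of the 6 HB9 libraries and without Opn4 sham replicate 3, with adjusted p up to 0.155 over all settings. Among the 8 tested of 9 listed substrates, Agrn, which Prss12 cleaves, had a log2 difference of -0.55 ± 0.46 in HB9 cells (adjusted p = 0.604). Clstn1, the other synaptic protein cleaved by that enzyme, had -0.87 ± 0.27 (adjusted p = 0.0821), and Cdh2 (N-cadherin) had 0.71 ± 0.27 (adjusted p = 0.150).

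**Figure D3:**
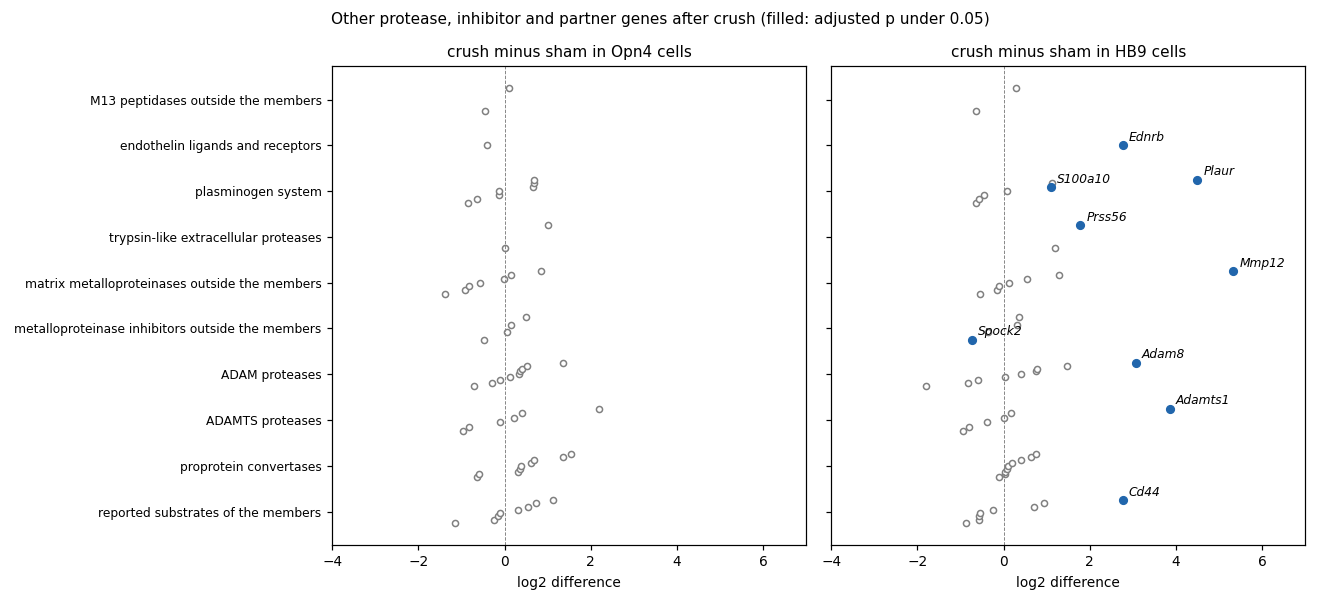
Log2 difference between crush and sham for the 55 tested genes of the 10 lists, 1 row per list and 1 point per gene, in Opn4 cells (left) and HB9 cells (right), filled and named where the adjusted p is under 0.05. Filled points are in the HB9 panel, 8 to the right of 0 up to Mmp12 at 5.33 and Spock2 to the left at -0.74.

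Between the classes, Opn4 cells had 10 of the 55 genes higher and 9 lower after crush, and 10 higher and 5 lower after sham. The shares of all genes were 5.12% higher and 7.6% lower after crush, and 5.82% higher and 5.93% lower after sham. Of the lower genes, Anxa2 and, after crush, Plaur, Mmp12, Adam8, Prss56, Ednrb and Cd44 entered the test mainly through HB9 libraries. Of the higher genes, Pcsk5 and Adam19 entered it mainly through Opn4 libraries. The counts are therefore no support for an excess over the shares of all genes. The lists had a median log2 difference of 0.27 after crush and 0.26 after sham, against -0.12 and 0.01 over all genes. All proprotein convertases that passed, 3 of 9 tested, were higher in Opn4 cells. Pcsk1, a convertase of neuropeptide precursors, measured 187, 153 and 161 RPKM in Opn4 crush libraries, against 51.4, 46.4 and 51.4 RPKM in HB9 crush libraries. After sham it measured 103, 149 and 133 RPKM in Opn4 libraries, against 32.6, 39.7 and 24.5 RPKM in HB9 libraries, and the log2 difference was 1.72 ± 0.21 after crush (adjusted p = 0.000220) and 1.97 ± 0.21 after sham (adjusted p = 5.9e-05). Pcsk2, its partner in secretory granules, was higher by 2.96 ± 0.46 after crush (adjusted p = 0.00125) and 2.68 ± 0.46 after sham (adjusted p = 0.00224). Pcsk5 was higher by 3.36 ± 0.47 after crush (adjusted p = 0.000615) and 4.04 ± 0.47 after sham (adjusted p = 0.000130). The metalloproteinase Mmp15 was higher by 1.61 ± 0.32 after crush (adjusted p = 0.00571) and 2.44 ± 0.32 after sham (adjusted p = 0.000307), and Spock1 by 1.50 ± 0.25 (adjusted p = 0.00197) and 1.72 ± 0.25 (adjusted p = 0.000711).

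Pcsk5 reached 1 RPKM in Opn4 libraries alone, and so entered the test through the class where it was high. In the other direction Anxa2, the partner of S100a10, was nearly restricted to HB9 cells. It reached 1 RPKM in every HB9 library and in 1 Opn4 crush library, so it too entered the test through the class where it was high. It measured 3.08, 0.148 and 0 RPKM in Opn4 crush libraries, against 139, 117 and 123 RPKM in HB9 crush libraries, and 0, 0.142 and 0 RPKM in Opn4 sham libraries, against 58.3, 60.6 and 53.1 RPKM in HB9 sham libraries. Its log2 difference between Opn4 and HB9 cells was -6.25 ± 0.47 after crush (adjusted p = 5.85e-06) and -5.80 ± 0.47 after sham (adjusted p = 7.66e-06). Of the 8 genes that had risen after crush in HB9 cells, 7 were among the 9 lower in Opn4 cells after crush: Mmp12 (-4.50), Plaur (-3.82), Cd44 (-3.03), Adam8 (-3.00), Ednrb (-2.75), Prss56 (-1.78) and S100a10 (-0.90). These differences share the HB9 crush libraries with the crush effect. The eighth, Adamts1, had a difference of -0.80 ± 0.89 (adjusted p = 0.619). Of these, the calls of Adam8 and S100a10 were lost without Opn4 crush replicate 1, HB9 crush replicate 1 or HB9 crush replicate 2, and that of Adam8 also without Opn4 crush replicate 2, with adjusted p up to 0.165 for Adam8 and 0.0829 for S100a10 over all settings, and that of Mmp12 was lost in the test on recovered reads (adjusted p = 0.0592).

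Among genes of the ADAM family, Adam19 reached 1 RPKM in every Opn4 library, in 2 HB9 crush libraries and in 0 HB9 sham libraries. It thus entered the test mainly through the class where it was high. Adam19 was higher in Opn4 cells by 2.50 ± 0.42 after crush (adjusted p = 0.00191) and 2.88 ± 0.42 after sham (adjusted p = 0.000669). Adam10, a main shedding enzyme of cell surface proteins, was higher by 1.78 ± 0.54 (adjusted p = 0.0481) and 2.88 ± 0.54 (adjusted p = 0.00381). Adam23, which lacks protease activity, was lower by -1.15 ± 0.35 (adjusted p = 0.0464) and -2.08 ± 0.35 (adjusted p = 0.00173), and Adam11 was lower after sham by -2.21 ± 0.62 (adjusted p = 0.0356). Of the reported substrates, Cdh2 was higher in Opn4 cells after sham by 1.54 ± 0.27 (adjusted p = 0.00217), Bcan, a brain proteoglycan, was lower by -3.07 ± 0.51 (adjusted p = 0.00157), Clstn1 was lower by -0.90 ± 0.27 (adjusted p = 0.0469), and Agrn was higher after crush by 1.63 ± 0.46 (adjusted p = 0.0330). Lrp1, an endocytic receptor that clears Plat and metalloproteinases, was higher by 1.94 ± 0.41 after crush (adjusted p = 0.00771) and 1.37 ± 0.41 after sham (adjusted p = 0.0455). Spock2 was higher by 0.96 ± 0.19 after crush (adjusted p = 0.00622) and 0.71 ± 0.19 after sham (adjusted p = 0.0318). Leaving out 1 library of the groups compared lost the calls of Adam10, Adam23 and Agrn after crush, with adjusted p up to 0.313, 0.171 and 0.135 over all settings. It also lost those of Adam11, Clstn1, Lrp1 and Spock2 after sham, with adjusted p up to 0.556, 0.556, 0.525 and 0.267, and with the rod covariate the calls of Adam10 and Pcsk2 after sham and of Lrp1, Mmp15 and Spock2 after crush were lost as well.

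**Figure D4:**
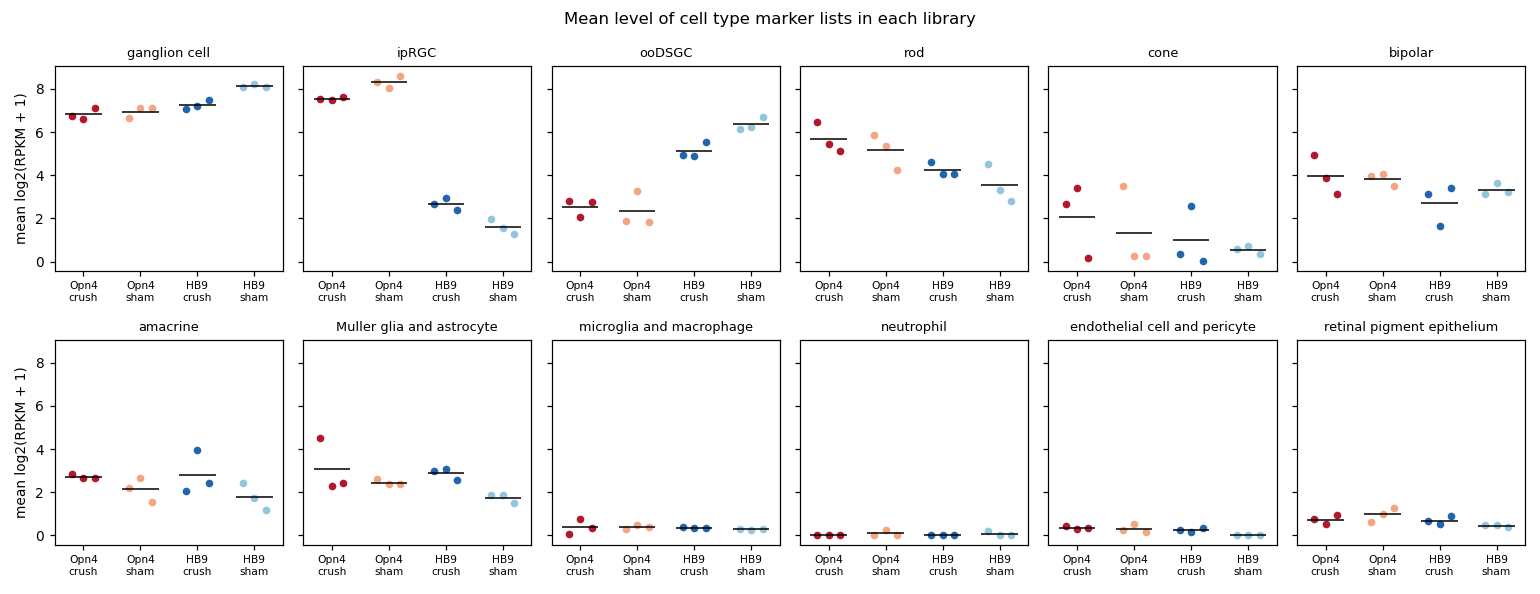
Mean log2(RPKM + 1) of 12 lists of cell type markers in each library, with a bar for the mean of 3 libraries, by group. The ipRGC and ooDSGC lists separate Opn4 from HB9 libraries, rod transcripts are present in all libraries and reach 6.45 in Opn4 crush replicate 1, and the microglia, neutrophil, endothelial and pigment epithelium lists stay at or below 1.28.

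The genes with levels most like those of Ecel1, Prss12 and Mmp9 were taken as the 5 with the highest Pearson correlation of log2(RPKM + 1) over the 12 libraries. The libraries share their 4 groups, so these values describe the pattern across groups and carry no p. For Ecel1 they were Atf3 (0.990), a transcription factor of the injury response, Cox6a2 (0.980), Srxn1 (0.977), Gm5471 (0.974) and Sqstm1 (0.973). Atf3 averaged 59.2 RPKM in Opn4 crush, 0.0824 RPKM in Opn4 sham, 540.0 RPKM in HB9 crush and 0.0868 RPKM in HB9 sham libraries, so it had the same order of levels after crush as Ecel1. Sqstm1, an autophagy receptor, was high in all groups, at 1204 RPKM in Opn4 crush, 749 RPKM in Opn4 sham, 2065 RPKM in HB9 crush and 714 RPKM in HB9 sham libraries. For Prss12 the 5 were Gprc5c (0.984), Taf7l (0.983), Cyp4f15 (0.982), Mef2b (0.982) and Cyb5r2 (0.981). Cyb5r2 averaged 0 RPKM in both Opn4 groups and 21.9 RPKM in HB9 crush, against 0.283 RPKM in HB9 sham libraries, and Gprc5c averaged 6.80 RPKM in HB9 crush and 0.00701 RPKM or less in the other groups. For Mmp9 they were Chrna6 (0.977), a nicotinic receptor subunit, Atp6v1c1 (0.975), St6gal2 (0.971), Gm16334 (0.966) and Extl2 (0.957). Chrna6 averaged 10.5 RPKM in Opn4 crush, 3.26 RPKM in Opn4 sham, 44.3 RPKM in HB9 crush and 658 RPKM in HB9 sham libraries, the same order of groups as Mmp9.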

How the data were processed

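RNA was measured in 12 libraries of hand-picked mouse retinal ganglion cells, 3 in each of 4 groups read from the sample titles. The authors deposited 1 table of RPKM per gene and library for 38887 genes, made from poly(A) RNA that had been amplified before sequencing, per the labels' protocols. Per the submitters' processing notes, TopHat2 2.0.11, Bowtie, edgeR 3.14.0 and build mm10 were used; the step that used edgeR, the counting and its use of strand are not given in the sources used here. Low RPKM values fell on whole multiples of 1 read: in each library 100% of the values of genes of at most 200 bases came within 0.01 read of a whole number. This gave the scaling total of each library and whole reads per gene. Summed recovered reads came to 227% to 244% of the totals used for scaling, for a reason the files do not give, and serve only for floors and 1 alternative test. Floors are 3 reads and cover counting error only, since amplified reads carried no molecular identifiers and are not separate molecules.

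The 18269 genes with at least 1 RPKM in at least 3 of 12 libraries were tested as log2(RPKM + 1), so differences of low genes are understated. Limma 3.58.1 in R 4.3.3 fitted 4 group means (8 residual degrees of freedom) with eBayes and an intensity trend. Tests were two-sided, with Benjamini-Hochberg adjustment over all tested genes of a comparison and a threshold of 0.05. The 5 comparisons were crush against sham in each class, the difference between these effects, and Opn4 against HB9 cells after each surgery. The script was tested on simulated data. Alternatives were a pseudocount of 0.1, no filter, quantile normalization, only the groups compared, the replicate number as a block, leaving out each library, leaving out the 2 Opn4 libraries that stood apart, library weights, a rod marker covariate, and limma's voom on recovered reads.

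The members and lists were chosen with earlier results of these data known. Named were all 10 members and, per list and comparison, up to 4 genes past the threshold with the largest difference, plus the genes most like Ecel1, Prss12 and Mmp9; Agrn, Clstn1 and Cdh2 after crush were named as substrates after their values were seen. The labels say that 3 pools of 10 cells made a sample, with 10 cells from an animal, but do not say that replicates of a group shared no animals, so p-values measure the spread between these samples. No library duplicated another.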

Additional observations from a re-analysis of the deposited data

Results flagged for a closer look

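By a test of the difference itself, the crush effects of the classes passed the threshold for 2 of the 55 listed genes. Over all genes, the effect in Opn4 cells was the higher for 0.29% and the lower for 0.525%. The difference, Opn4 minus HB9 effect on the log2(RPKM + 1) scale, was -3.19 for Ednrb (SE 0.64, adjusted p = 0.0392) and -2.87 for Cd44 (SE 0.58, adjusted p = 0.0400). For Ednrb the crush difference was -0.42 in Opn4 cells, where 1 sham library at 1.43 RPKM set it, and 2.77 in HB9 cells, where all 3 crush libraries lay above all 3 sham libraries. For Cd44 the HB9 crush libraries measured 4.25 to 9.98 RPKM, and the Opn4 libraries 0 to 0.261 RPKM. The test on recovered reads called neither. Of the 55 genes it called only Prss56, which reached 1 RPKM in the 3 HB9 crush libraries alone. In all, the call was lost in 16 of 20 alternative settings for Cd44 and in 15 of 20 for Ednrb. Cd44 reached 1 RPKM in the 3 HB9 crush libraries alone and Ednrb in those and 1 Opn4 sham library, so both entered the test through the group where they were high. Their calls are therefore no support for a difference between the classes beyond the values given.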

How the results depend on the processing

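Changes of count, call or sign among the 6 tested genes are printed here or with each gene above. Ecel1, Prss12 and Mmp9 changed in size with a pseudocount of 0.1, in part given above, and with voom on recovered reads. In voom the crush difference was 10.22 in Opn4 and 12.85 in HB9 cells for Ecel1, and -2.81 and 10.78 for Prss12. Mmp9 had 4.10 in Opn4 cells after crush and -11.61 between the classes after sham. Ecel1 turned sign between the classes after sham, from 0.099 to -0.94. Among the 6 tested genes the count past the threshold after crush in Opn4 cells was 0 and became 1 with the rod covariate (Plat) and 1 in voom on recovered reads (Timp2). In HB9 cells it was 0 and became 1, always Plat, with only the groups compared, without the 2 Opn4 libraries that stood apart, with library weights and with the rod covariate, and ranged from 0 to 1 when 1 library was left out. It was 0 for the difference between the effects and 2 to 3 between the classes when 1 library was left out. Signs of uncalled differences turned as follows. Leaving out 1 library, Timp3 in Opn4 cells after crush ranged from -0.16 (without Opn4 sham replicate 1) to 0.93; in the difference between the effects Ece2 ranged from -0.17 to 0.70, Plat from -0.69 to 1.50 (both low without Opn4 sham replicate 1) and Timp3 from -0.86 to 0.24 (high without Opn4 crush replicate 2); and between the classes after sham Ece2 ranged from -0.44 to 0.43 and Plat from -2.13 to 0.065 (both high without Opn4 sham replicate 1). Without the 2 libraries that stood apart, Timp3 was -0.38 in Opn4 cells after crush, Plat was -0.19 in the difference between the effects, and Ece2 and Plat were 0.43 and 0.065 between the classes after sham. With library weights Plat was -0.029 in the difference between the effects. With the rod covariate Ece2, Plat and Mmp24 were 0.92, 0.86 and 0.033 between the classes after sham, and Plat was 1.21 after crush. The cause was not tested. Deviations from the group means correlated at -0.0217 to 0.081 over 18 same-numbered pairs. With so few libraries per group, these values cannot decide whether the replicate numbers paired the libraries. The fit with the replicate number as a block called 0, 0, 0, 3 and 3 of the 6 genes in the same 5 comparisons and ended 7 list calls, among them the differences between the crush effects of Ednrb and Cd44 (adjusted p = 0.0565 and 0.0711), whose calls after crush in HB9 cells were kept; over all genes it called 98 in place of 149 for the difference between the effects. Counts over all genes moved too: 203 after crush in Opn4 cells became 13 with only the groups compared and 87 with library weights, and ranged from 139 to 224 leaving out 1 library; 1172 in HB9 cells became 1939 and 3025, ranging from 645 to 1393; 149 for the difference became 90 with a pseudocount of 0.1, ranging from 61 to 156; the class counts, 2325 after crush and 2148 after sham, became 971 and 809 with the rod covariate, ranging from 1356 to 2619 and from 1348 to 2353. Of the 45 calls of listed genes, 25 were kept in every alternative, 20 were lost in at least 1 and 0 turned sign.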
